A study of Rattus norvegicus with 2 samples.

Results

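The genes described here encode the Wnt ligands, their receptors, the secreted proteins that inhibit or enhance them, and the first intracellular relays of the pathway, in hypothalamic RNA of male and of female SHR, the spontaneously hypertensive rat. Members were chosen by symbol: every gene whose name starts with Wnt and a number, or with Fzd, Sfrp, Dkk, Rspo, Axin or Dvl, together with Lrp5, Lrp6, Wif1, Frzb, Porcn and Ctnnb1. The array gave 50 such genes among 16573 genes with a symbol and 39500 genes and unnamed transcripts in all. Of the 53 symbols that the rule takes, Wif1, Wnt2 and Wnt3a were not analysed here. The study had 1 group per sex. The male group was 1 RNA pool of 5 male SHR aged 9 weeks, and the female group was 1 RNA pool of 5 female SHR of the same age, each pool made with 100 ng of RNA from every rat. All rats belonged to this 1 inbred strain, which becomes hypertensive with age, so no normotensive strain is among these samples, and the labels name no treatment. Each pool was read on 1 single-colour Agilent array. There was therefore 1 value per sex and no replicate, no test was run, and every difference below describes these pools only. The comparison addresses the sex difference in a brain region that takes part in cardiovascular control.

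Wnt proteins are secreted, lipid-modified ligands that act over short distances. They bind Frizzled receptors (Fzd) with the coreceptors Lrp5 and Lrp6. In the canonical branch, binding recruits Dishevelled (Dvl) and Axin to the membrane, which stops the destruction of β-catenin (Ctnnb1) and lets it enter the nucleus, where it switches on targets through Tcf and Lef factors. Other branches act through cell polarity and calcium without β-catenin. Secreted Frizzled-related proteins (Sfrp, and Frzb, also known as Sfrp3) bind Wnt ligands outside the cell, Dickkopf proteins (Dkk) block Lrp5 and Lrp6, and R-spondins (Rspo) enhance the signal by keeping the receptors at the cell surface. In the adult brain the pathway is known for its roles in synapse maintenance, in the blood-brain barrier and in the choroid plexus and meninges.

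Axin2 and Dkk1 are textbook feedback targets of the pathway, and Frzb had the largest difference among the more brightly measured members, so the promoters of these 3 genes are shown. Each sequence is the 250 bases before the start site in RefSeq's annotation of GRCr8, written 5′ to 3′ on the gene's own strand. Capitals mark the 7-base words of the Tcf/Lef family of factors, searched on both strands. The words were CTTTGAA and its variant CTTTGAT, along with the word CTTTGTA and its variant CTTTGTT.
Axin2, chr10:94398535-94398784, plus strand: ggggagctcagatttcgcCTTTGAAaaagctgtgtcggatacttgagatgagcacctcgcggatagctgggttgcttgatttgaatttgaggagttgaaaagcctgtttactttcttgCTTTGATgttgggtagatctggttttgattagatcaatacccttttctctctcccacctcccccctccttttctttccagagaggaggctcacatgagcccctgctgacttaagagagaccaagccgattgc
Dkk1, chr1:237798651-237798900, minus strand: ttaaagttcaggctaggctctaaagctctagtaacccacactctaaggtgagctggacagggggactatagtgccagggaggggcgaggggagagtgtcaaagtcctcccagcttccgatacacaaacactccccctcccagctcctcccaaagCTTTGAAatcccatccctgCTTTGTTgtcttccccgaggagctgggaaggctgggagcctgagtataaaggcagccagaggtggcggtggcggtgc
Frzb, chr3:85772097-85772346, minus strand: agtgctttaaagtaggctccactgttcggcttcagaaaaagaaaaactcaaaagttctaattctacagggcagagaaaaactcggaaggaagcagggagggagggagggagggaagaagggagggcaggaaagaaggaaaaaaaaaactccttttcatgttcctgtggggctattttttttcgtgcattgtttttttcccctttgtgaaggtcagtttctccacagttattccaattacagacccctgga
The Axin2 and Dkk1 promoters each held 2 of these words, and the Frzb window held 0. RefSeq's promoter table had an entry for 34 of the 50 members. Of these, 5 (14.7%) held at least 1 word, among them also Dkkl1 and Sfrp5, against 4985 of all 33469 promoters of the same length (14.9%). The words are short, and a match is a description of the letters, not of binding.

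Signals are given as a percent of the 75th percentile of the 58717 spots for rat transcripts on the same array. That percentile was 2203 units for males and 2254 units for females. Differences are male minus female on the log2 scale after centring on that percentile, and a positive value means more signal in the male pool. The scanner software called 71.6% of male and 73.0% of female spots well above background. Probes printed on several spots of an array gave the technical SD of a difference. It was set by the mean log2 signal of both pools, relative to the 75th percentile. It was 0.43 below -6, 0.25 at -6 to -4, 0.13 at -4 to -2, 0.087 at -2 to 0 and 0.072 above 0. This SD covers printing and scanning, and neither the spread between animals nor that between arrays, whose number limits the precision of every value. For a gene that only 1 pool showed well above background, the dim pool was set to the higher of its own signal and the array's lowest probe signal past that flag. Where that lowest signal was the higher, the fold is a bound, given with "at least". Where the gene's own signal was the higher, the fold is a plain ratio to a signal not well above background. Spots at least 2-fold apart lay in clusters on the slide: 80.2% of the 1267 such spots, against 9.04% of other measured spots, had at least 2 of their 18 nearest measured neighbours, from other probes, at least 2-fold apart in 1 direction. Such a spot is called a spot in a patch below. As to the labelled tissue, 9 of 9 markers of hypothalamic neurons, from Avp and Oxt to Pmch and Hcrt, were well above background in both pools, as were 73.6% of all genes with a symbol and 6 of 6 matched markers of the adjoining thalamus.

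Most Wnt pathway members were close between the sexes, and those at least 1.5-fold apart were higher in the male pool. In RNA of a whole tissue block, fewer cells of a type and less RNA per cell cannot be told apart. Of the 50 members, 44 were well above background in at least 1 pool and 40 in both. Over these 40, the male pool was higher for 18 and lower for 22, with a median difference of -0.01 (0.02 with normexp, another background correction that adds 50 units to every signal and so shrinks dim differences), beside a median of -0.02 over all 24134 genes and transcripts measured in both pools (0.01 with normexp). Of the 40, 37 were within 1.5-fold.
In all, 6 of the 44 measured members (13.6%) were higher in the male pool by 1.5-fold or more, namely Wnt10b, Wnt6, Wnt10a, Sfrp1, Dkk1 and Rspo4, where 4.14% of all 26110 measured genes and transcripts were. None was at least 1.5-fold lower, where 2.73% of all were. Wnt10b, Sfrp1 and Dkk1 (6.82% of the members) were at least 2-fold higher, against 2.56% of all, and 0 members were at least 2-fold lower, against 1.64% of all.
Wnt10a, Dkk1 and Rspo4 counted as measured through the male pool alone, where they were high. Among the members measured in both pools, 3 of 40 (7.5%) were higher by 1.5-fold or more (Wnt10b, Wnt6 and Sfrp1), beside 2.16% of all 24134, and 0 were lower by as much, beside 1.25%.
All 6 had a mean log2 signal of -4 or lower, here called dim. That mean takes in the lower pool, so a large difference itself pulls it down. In the male pool Wnt10b was at 16.4%, and Wnt4, counted as brighter, at 16.3%. Among the 23 brighter members none differed by 1.5-fold, and their differences ran from -0.21 to 0.49. By the other yardstick, more than 2 technical SDs in members measured in both pools, 5 of 40 were higher in the male pool (Wnt10b, Wnt4, Fzd10, Frzb and Sfrp1), beside 5.52% of all, and 0 were lower, beside 5.29%.

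**Figure D1:**
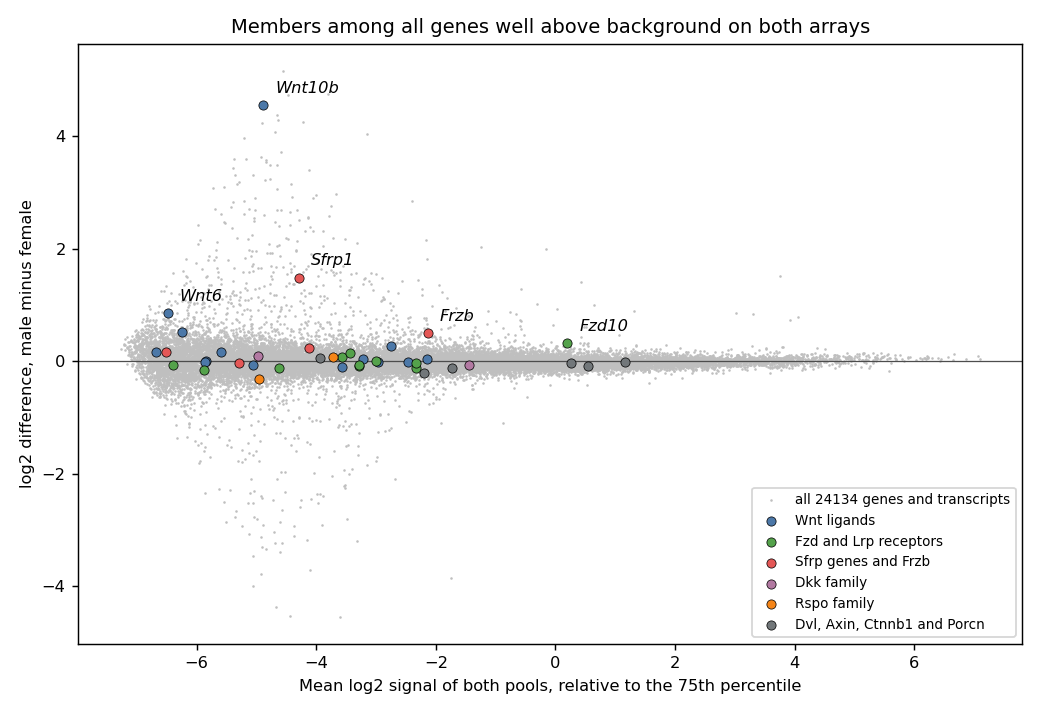
Difference between the pools (male minus female, log2) against the mean log2 signal of both pools relative to the 75th percentile, for all 24134 genes and transcripts well above background on both arrays (grey) and the members among them (coloured by role). Wnt10b, Sfrp1 and Wnt6 lie above most members at low signal, and the brighter members lie near 0, with Frzb at 0.49 and Fzd10 at 0.31.

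Among the 17 Wnt ligand genes, 15 were measured, and 3 were higher in the male pool by 1.5-fold or more. Of the 14 measured in both pools, the male pool was higher for 8 and lower for 6, and their median was 0.03.
Wnt10b, a canonical ligand best known for holding back fat cell formation and building bone, had a signal of 16.4% in the male and 0.697% in the female pool. Its difference was 4.56 ± 0.25 (technical SD), or 23.5-fold, and 2.41 with normexp. The male signal was high and the female signal close to the lowest that counts as above background. The SD goes by the mean of both pools, and that of the dimmest signals was 0.43. Its single spot lay in a patch, and the part of its place on the slide in this difference was not tested.
Wnt6 and Wnt10a are neighbours on chromosome 9. Wnt6, a ligand of epithelia, was at 1.5% in the male and 0.834% in the female pool, a difference of 0.85 ± 0.43 (1.80-fold), and of 0.28 with normexp. Wnt10a, a ligand needed for tooth and skin appendages, was at 1.05% in males and at 0.637%, not well above background, in females. The male signal was 1.65-fold higher, a plain ratio and not a bound, with a normexp difference of 0.27. Both spots lay outside patches, and both differences were within 2 technical SDs.

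The ligands with the brightest probes hardly differed between the pools. Wnt7a, a ligand for blood-brain barrier formation and synapses, was at 23.0% in the male and 22.4% in the female pool, and its difference was 0.03 ± 0.13, with 0.07 on its second probe. Wnt3, a canonical ligand of early patterning and the neighbour of Wnt9b on chromosome 10, was at 18.04% and 18.2%, a difference of -0.01 ± 0.13. Wnt4, a ligand known for ovary and kidney development, was the exception, at 16.3% in the male and 13.5% in the female pool. Its difference was 0.27 ± 0.13 (1.21-fold), and 0.24 with normexp.
The ligands not yet named that were measured in both pools lay between -0.10 and 0.17, apart from Wnt16. Wnt2b was at 8.15% in the male and 8.75% in the female pool (-0.10), Wnt9a at 12.7% and 12.8% (-0.01), and Wnt9b at 10.9% and 10.6% (0.03). The non-canonical ligands Wnt5a and Wnt5b both had a difference of 0.17, within 1 technical SD, at 1.03% and 2.19% in males against 0.920% and 1.95% in females. Wnt11, which also acts mainly without β-catenin, was at 1.71% and 1.73% (-0.02). Wnt7b, close kin of Wnt7a, was at 1.73% in both pools (-0.00).
Wnt1, the founding member of the family and the neighbour of Wnt10b on chromosome 7, was at 2.92% in the male and 3.07% in the female pool. Its difference was -0.08 ± 0.25, unlike that of Wnt10b. Wnt16 was at 1.58% and 1.1%, a difference of 0.53 that was 0.22 with normexp and near its technical SD of 0.43. Wnt8a and Wnt8b were not well above background in either pool.

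**Figure D2:**
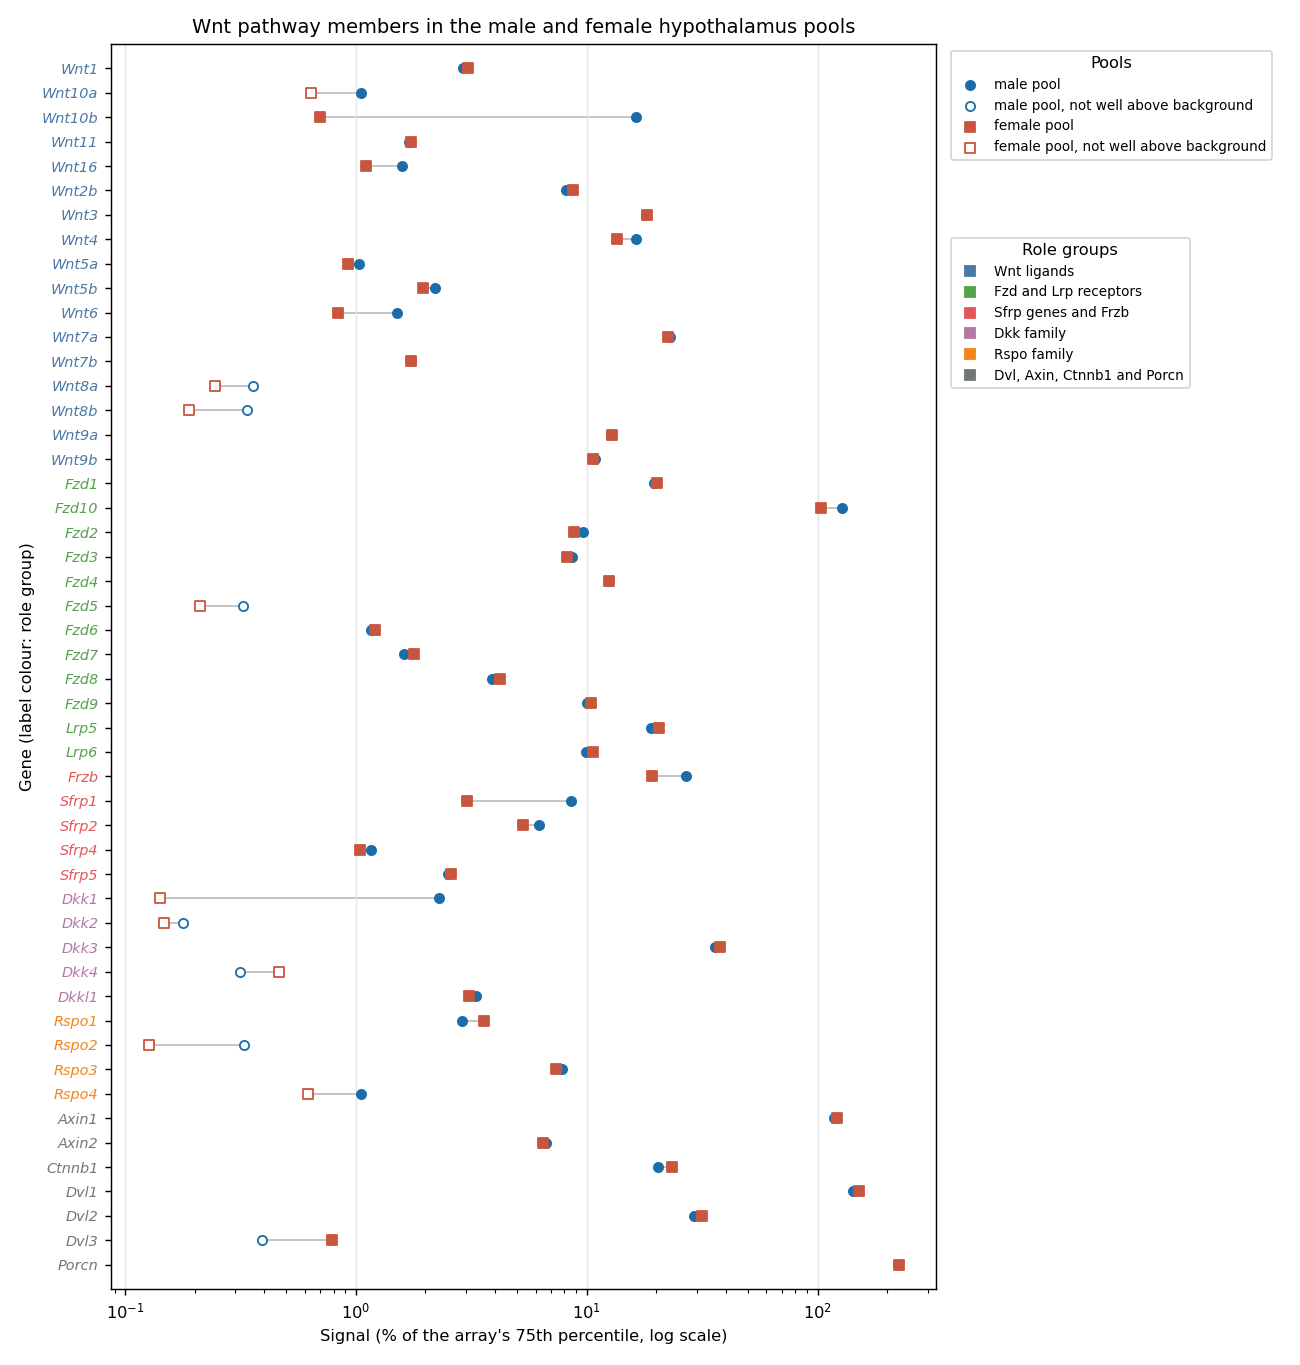
Signal of all 50 members in the male pool (circles) and the female pool (squares), 1 main probe each, as a percent of the array's 75th percentile on a log scale, with open symbols where the pool was not well above background. Most pairs of symbols overlap, and the widest gaps among measured members are those of Wnt10b (16.4% and 0.697%), Dkk1 (2.30% and 0.142%) and Sfrp1 (8.52% and 3.04%).

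The Frizzled and Lrp receptor genes were close between the pools, with 11 of 12 measured and 0 at least 1.5-fold apart. The male pool was higher for 3 and lower for 8. Their median was -0.06 and their range -0.15 to 0.31.
Fzd10 was at 128% in the male and 103% in the female pool, a difference of 0.31 ± 0.072 (1.24-fold). This receptor's second probe was at 2.03% and 2.08%, with a difference of -0.04 ± 0.25. The second probe did not repeat the 0.31, but its SD is too wide to tell the values apart.
Fzd1 was at 19.6% in the male and 20.2% in the female pool (-0.04 ± 0.13). Lrp5, one of the coreceptors that Dickkopf proteins block, was at 19.0% and 20.6% (-0.12 ± 0.13), and Lrp6, the other, at 9.97% and 10.6% (-0.09 ± 0.13), with 0.07 on a second probe. These differences did not exceed 1 technical SD.
Fzd4, the receptor for norrin and Wnt7a in brain vessels, was at 12.5% in both pools (-0.01). Fzd9 was at 10.01% in the male and 10.4% in the female pool (-0.06), Fzd3, an axon guidance and polarity receptor, at 8.65% and 8.24% (0.07), and Fzd2 at 9.67% and 8.78% (0.14). Fzd8 was at 3.89% and 4.22% (-0.12), and its other probes gave -0.04 and 0.17. Fzd7 (1.61% and 1.79%, -0.15) and Fzd6 (1.16% and 1.22%, -0.07) were dim in both pools, and Fzd5 was not well above background in either pool. No receptor other than Fzd10 passed 2 technical SDs.

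The secreted Frizzled-related genes had more signal in the male pool in 4 of 5 cases, beside 44.96% of all genes and transcripts measured in both pools. Of the 4, Sfrp2 and Sfrp4 were within 1 technical SD. The median of the 5 was 0.23 (0.19 to 0.23 under the alternative settings), beside -0.02 over all genes and transcripts.
Sfrp1, which encodes a soluble Wnt-binding protein, had 2 probes, both well above background in both pools. The first, A_43_P10016, was at 8.52% in the male and 3.04% in the female pool, a difference of 1.49 ± 0.25 (2.80-fold). The second, A_44_P513059, was at 4.03% and 1.80%, a difference of 1.16 ± 0.25 (2.24-fold). Both spots lay outside patches, and normexp gave 0.93 and 0.64. Sfrp1 was the 1 member of the 6 whose spot lay outside patches and whose difference was at least 1.5-fold with normexp.
Frzb, at 27.0% in the male and 19.2% in the female pool, differed by 0.49 ± 0.13 (1.41-fold), and by 0.37 with normexp, also outside patches. It had the largest difference among the 23 brighter members. Sfrp2 was at 6.24% and 5.31%, a difference of 0.23 ± 0.25. Sfrp4 (1.17% and 1.04%, 0.17 ± 0.43) and Sfrp5 (2.51% and 2.57%, -0.03 ± 0.25) stayed within 1 technical SD.
Markers of some cell types also differed between the pools. Of 12 markers of meningeal fibroblasts, 11 were matched and measured in both pools, and all 11 were higher in the male pool. Of these, 7 were at least 2-fold higher, beside 2.56% of all measured genes and transcripts. The median difference of the 11 was 1.21 (1.03 with normexp), with a range from 0.50 to 1.82. The Ogn, Slc6a13 and Aldh1a2 spots lay in a patch, and the list was chosen with earlier results of these data known. The summed signal of the 11 was 493% in the male and 200% in the female pool, with none at 0. Col1a2, a chain of type I collagen, was at 104% and 42.7% (1.29), and Igf2 at 220% and 83.0% (1.41). Red blood cell genes had more signal in males in 4 of 4 cases, by a median of 0.86 and a summed signal of 179% against 101%. Choroid plexus markers were higher in 5 of the 6 measured in both pools, with a median of 0.24 and a summed signal over the list of 141% against 123%. Measured in 1 pool only were Kcnj13, at least 3.82-fold higher in males, and Kl, at least 1.14-fold higher in females.
Genes of the pituitary, the gland that hangs from the hypothalamus, also differed, in both directions. Over the list, 6 of 7 were measured and 5 in both pools. Of these 5, 4 were higher in males, and the median was 0.35. The summed signal was 287% against 188%, most of it Pomc (178% and 151%), which also stands in the hypothalamic neuron list. Tshb, a subunit of thyrotropin, was at 11.7% in the male and 0.939% in the female pool (3.64, or 1.80 with normexp), and Cga, the subunit it shares with the gonadotropins, at 84.9% and 20.8% (2.03, or 1.85 with normexp). Prl, which encodes prolactin, was at 5.43% in females and at 0.150%, not well above background, in males, so that the female signal was at least 7.91-fold higher. The Cga and Prl spots lay in a patch. Gh1 was not well above background in either pool. Tanycyte markers had a median of 0.04 over the 4 genes measured in both pools, with 3 higher in males and 1 lower. The lower 1 was Crym (103% and 115%, -0.15 ± 0.023, 10 spots). Gpr50 passed the background flag in females only, at 1.07% against 0.698% in males, a plain ratio of 1.53-fold. Rax, their defining factor, was not well above background in either pool. Astrocyte markers had a median of 0.08. The part of these cell types in the Sfrp1 and Frzb differences was not tested.

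**Figure D3:**
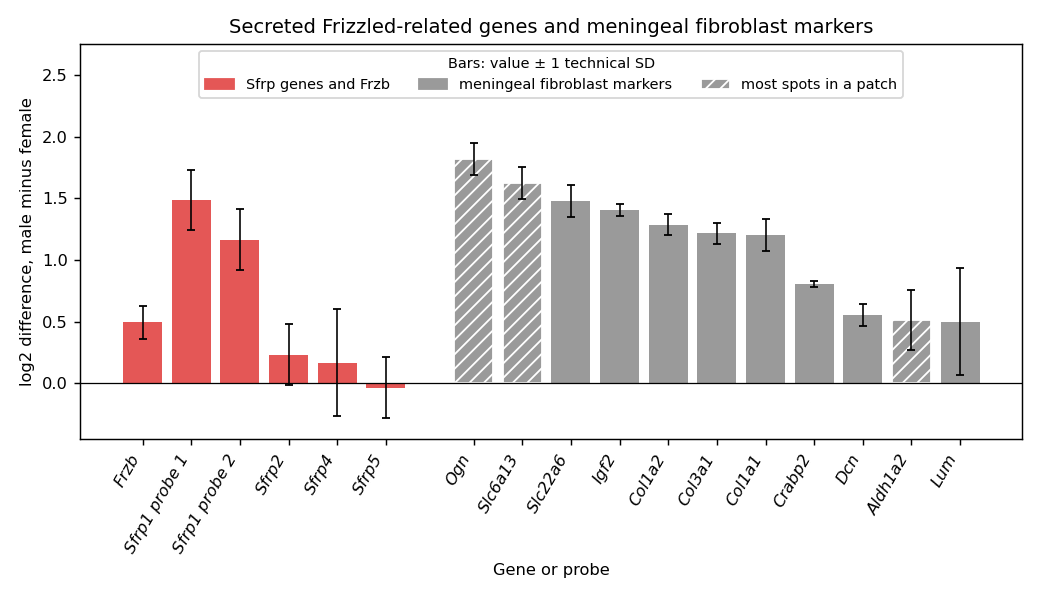
Log2 difference, male minus female, of the secreted Frizzled-related genes (red, Sfrp1 with both probes) and of 11 meningeal fibroblast markers (grey), with bars of 1 technical SD and hatching where most spots lay in a patch. Both Sfrp1 probes (1.49 and 1.16) lie within the range of the meningeal markers (0.50 to 1.82), while Frzb (0.49) is just under it and Sfrp5 (-0.03) is near 0.

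Of the 5 Dickkopf family genes, 3 were measured. Dkk1, the best known blocker of Lrp5 and Lrp6, was at 2.30% in males and at 0.142%, not well above background, in females, so that the male signal was at least 4.02-fold higher. With normexp its difference was 0.79. The spot lay in a patch. A second Dkk1 probe, at 0.170% in the male and 0.142% in the female pool, was not well above background in either, so this difference rests on 1 spot.
Dkk3, a divergent family member known for its high expression in brain, was at 36.0% and 37.8%, a difference of -0.07 ± 0.087, and its other 3 probes gave 0.19, -0.10 and -0.12. Dkkl1, a Dickkopf-like gene, was at 3.30% and 3.09% (0.10 ± 0.25). Dkk2 and Dkk4 were not well above background in either pool.
Among the R-spondins, Rspo4 was at 1.05% in males and at 0.620%, not well above background, in females. The male signal was 1.69-fold higher, a plain ratio within 2 technical SDs, with a normexp difference of 0.25 and its spot in a patch. Rspo1 was at 2.87% and 3.58%, a difference of -0.32 ± 0.25 that was the lowest among members measured in both pools and shrank to -0.08 with normexp. Rspo3, at 7.79% and 7.38%, differed by 0.08 ± 0.13, and Rspo2 was not well above background in either pool.

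The intracellular relays and the Wnt-modifying enzyme were close between the pools. Of the 6 measured in both, the male pool was higher for 1 and lower for 5. Their median was -0.06 and their range -0.21 to 0.05.
Porcn, the acyltransferase that lipidates Wnt proteins, was at 223% in the male and 224% in the female pool (-0.01 ± 0.072). Dvl1, a Dishevelled adaptor, was at 142% and 151% (-0.09 ± 0.072), and Axin1, the scaffold of the β-catenin destruction complex, at 118% and 121% (-0.03 ± 0.072). All 3 lay within 2 technical SDs.
Ctnnb1, which encodes β-catenin itself, was at 20.3% in the male and 23.5% in the female pool, a difference of -0.21 ± 0.13, and of -0.15 with normexp. Dvl2 was at 29.1% and 31.5% (-0.11 ± 0.087). Dvl3 passed the background flag in females only, at 0.791% against 0.392% in males, so that the female signal was at least 1.15-fold higher.
Axin2, whose transcription rises with canonical signalling and whose promoter with 2 Tcf/Lef words is printed above, was at 6.68% in the male and 6.45% in the female pool. Its difference was 0.05 ± 0.13, well within the technical spread.

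**Figure D4:**
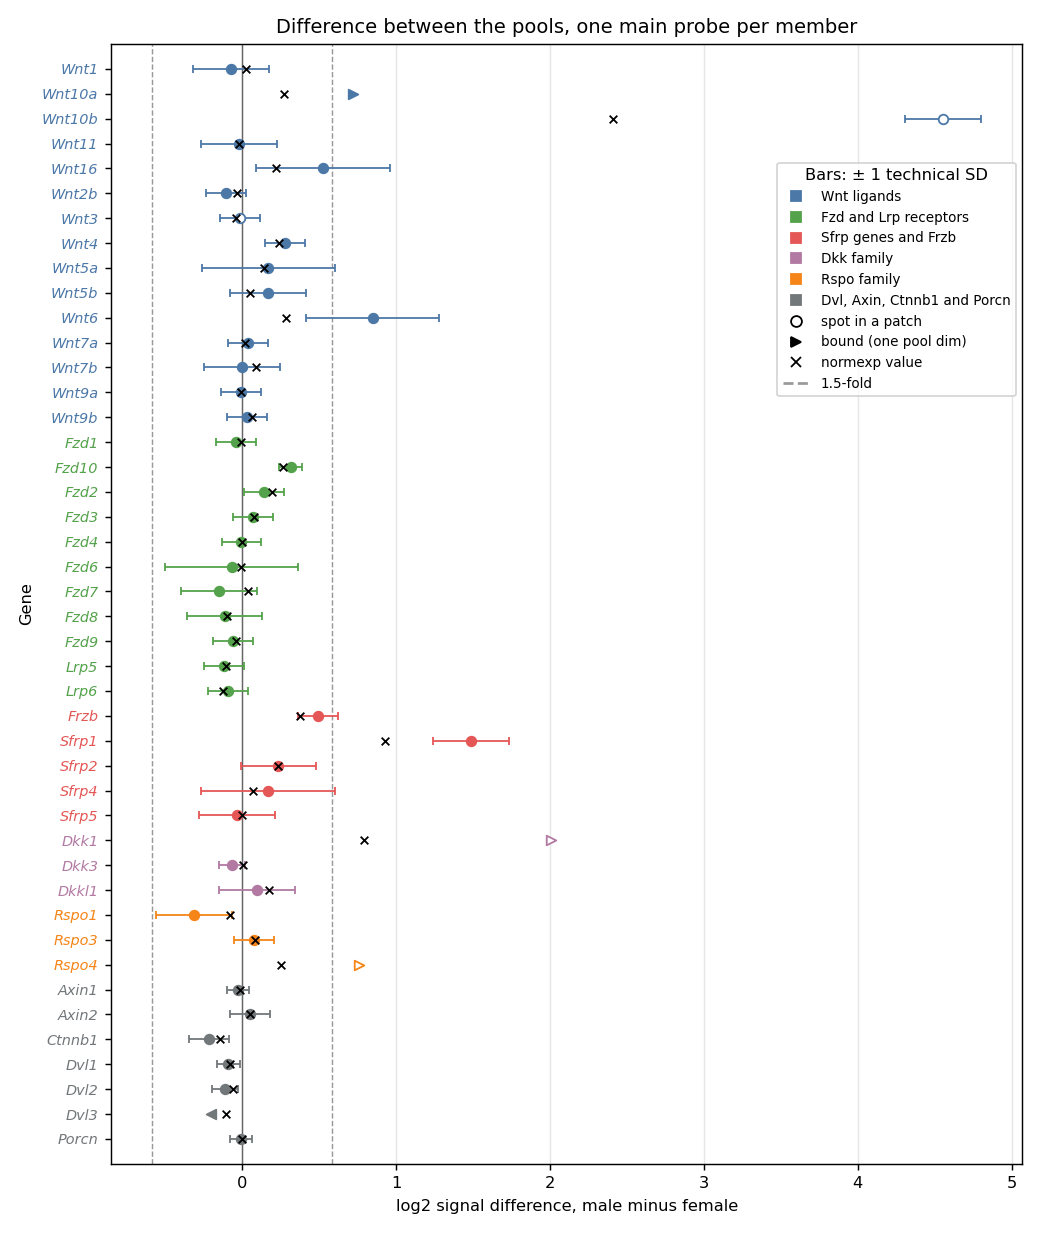
Log2 difference, male minus female, of the 44 measured members by role, with bars of 1 technical SD and dashed lines at 1.5-fold. Open symbols mark spots in a patch, and crosses the value with normexp. Triangles mark members with 1 pool not well above background, whose values are bounds except for Wnt10a and Rspo4. The 6 members past the right-hand line are Wnt10a, Wnt10b, Wnt6, Sfrp1, Dkk1 and Rspo4, and the crosses of Wnt10a, Wnt6 and Rspo4 fall inside it.

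Patches and probes bear on the members as follows. In all, 4 of the measured members had their spot in a patch, namely Wnt10b, Wnt3, Dkk1 and Rspo4. Among the 40 measured members outside patches, Sfrp1, Wnt6 and Wnt10a were higher in the male pool by 1.5-fold or more, where 1.72% of 23418 genes and transcripts outside patches were. None was lower by as much, where 0.927% were. Wnt10a counted as measured through the male pool alone, so it adds no support to an excess. Of the 38 members measured in both pools outside patches, only Sfrp1 and Wnt6 passed. Sfrp1 alone was at least 2-fold higher, where 0.525% were. All 50 main probes were on 1 spot each, and 12 members had more than 1 probe. For the 6 members with several probes measured in both pools, the probes of a gene differed by 0.04 (Wnt7a) to 0.35 (Fzd10).

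The rest of the pathway was given by a list of 86 further genes, of which 71 were matched, 64 measured and 62 measured in both pools. Of the 64, 0 were lower in the male pool by 1.5-fold or more, beside 2.73% of all genes and transcripts, and 3 were higher by that much (Fosl1, Tle3 and Sost), beside 4.14% of all, a share close to that background. The median over the 62 was 0.01 (male pool higher for 34, lower for 28), and it turned to -0.02 with median centring.
Fosl1, a subunit of the AP-1 transcription factor, was at 8.37% in the male and 1.39% in the female pool, a difference of 2.59 ± 0.25 (0.63 with normexp) from a spot in a patch. Tle3, a corepressor that binds Tcf factors, was at 33.3% and 17.0% (0.97 ± 0.13), also in a patch, and its second probe, outside patches, gave -0.03. Tcf7l1, a Tcf factor that mostly represses, was at 3.41% and 2.37%, a difference of 0.53 ± 0.25, and of 0.26 with normexp. The Tcf7l1 spot lay outside patches. Sost, an Lrp5 and Lrp6 blocker of bone, passed the background flag in males only, with a difference of at least 0.71 (0.15 with normexp).
Genes that handle Wnt ligands on their way out of and between cells had more signal in males in 5 of 5 cases, beside 44.96% of all genes and transcripts measured in both pools, but by a median of only 0.06 and in 0 cases by more than 2 technical SDs. Among them was Wls, the cargo receptor for Wnt secretion (57.3% and 55.5%, 0.04 ± 0.087). The largest was Adgra2 (2.21% and 1.65%, 0.42 ± 0.25), a receptor that works with Reck in Wnt7 signalling to brain vessels.
The destruction complex and its kinases showed 5 higher and 10 lower of 15, with a median of -0.04 and a range from -0.15 (Csnk1d) to 0.18 (Csnk1g1). Gsk3b, the kinase that marks β-catenin for destruction, was at 130% and 135% (-0.06 ± 0.072). Planar polarity genes had 4 higher and 7 lower of 11 and a median of -0.04 (0.01 with normexp). Among coreceptors 3 of 6 were higher, from Ror2 at -0.29 ± 0.25 to Ror1 at 0.47 ± 0.43, and nuclear factors had 7 higher and 6 lower of 13 with a median of 0.00.
Known targets and feedback genes of the pathway had more signal in the male pool in 11 of 13 cases, and their median was 0.14 (0.10 to 0.17 under the alternative settings). Over all genes and transcripts measured in both pools, 44.96% had more signal in males and the median was -0.02. Apcdd1, a membrane-bound Wnt inhibitor that is itself induced by the pathway, was at 41.4% and 32.4% (0.35 ± 0.087). Nkd1, a Dvl-binding inhibitor, was at 48.2% and 35.7% (0.44 ± 0.087) in a patch, with 0.29 on a second probe outside patches. Ccnd1, which encodes cyclin D1, was at 36.4% and 31.7% (0.20 ± 0.027, 10 spots), and Ccn1, a matrix protein gene, at 3.17% and 2.32% (0.45 ± 0.082, 9 spots).
Sox9, a glial and cartilage transcription factor, was at 36.2% and 31.1% (0.22 ± 0.087), and its other 3 probes gave 0.23, 0.44 (in a patch) and 0.79.
In all, 7 of the 13 were higher by more than 2 technical SDs, namely these 5, Fosl1 and Cd44 (7.32% and 6.65%, 0.14 ± 0.049, 7 spots), a cell adhesion receptor, beside 5.52% of all, and 0 were lower by as much, beside 5.29%. The SD is smaller for probes on several spots. Lef1 (31.2% and 31.1%, 0.00 ± 0.087) and Nkd2 (-0.03 ± 0.25), also on the target list, were even between the pools, as was Axin2. The remaining targets measured in both pools also stayed within 1 technical SD. They were Rnf43 (-0.13 ± 0.43), Notum (0.06 ± 0.43), Sp5 (0.13 ± 0.43) and Myc (0.08 ± 0.092). Meningeal markers had more signal in the male pool (median 1.21), and so did most markers in several other lists. Oligodendrocyte markers were higher in 6 of 6 cases (0.12), astrocytes in 5 of 6 (0.08), endothelium in 4 of 5 (0.19) and choroid plexus in 5 of 6 (0.24). Neuron markers were lower in 6 of 7 (-0.06). The part of these cell types in the target differences was not tested.

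**Figure D5:**
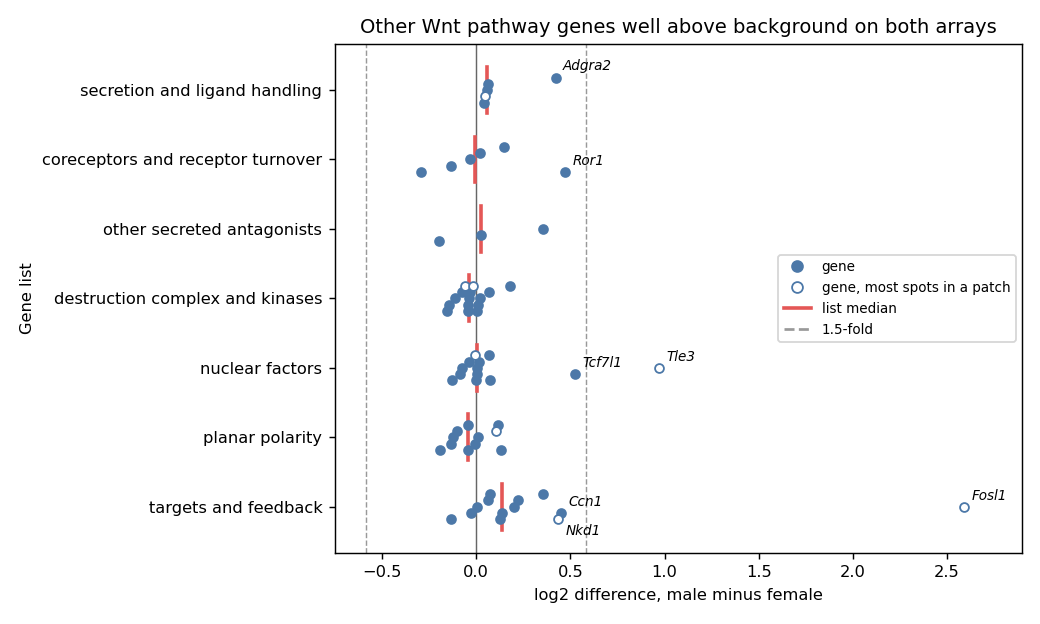
Log2 difference, male minus female, of the other pathway genes measured in both pools, by list, with the list median as a red bar, open symbols where most spots lay in a patch and dashed lines at 1.5-fold. Genes that stand in more than 1 list appear in each. Fosl1 (2.59) and Tle3 (0.97) lie beyond 1.5-fold, and the targets and feedback list has the highest median (0.14).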

How the data were processed

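Total RNA of hypothalamus blocks, dissected by 1 operator from rats killed under ether, was pooled by sex, labelled with Cy3 and read on Agilent arrays. Both arrays were on 1 slide and scanned together. Per the file headers, each deposited file holds the scanner's processed signal, a background-subtracted intensity with no scaling between arrays (Feature Extraction 11.5.1.1, protocol GE1_1105_Oct12, design build rn4), while the submitters' processing notes name version 9.1. The scaling of the deposited series matrix, also an intensity, was not stated; its values were found to be each spot's processed signal as a percent of the 75th percentile (median relative deviation 9.6e-06 and 9.38e-06 for male and female).

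From the array files, the log2 signal of each spot was taken relative to the 75th percentile of rat transcript spots of its array, and a probe's spots were averaged. An outlier flag removed 664 spots, and 0 were saturated. A probe was well above background when over 50% of its spots were. The lowest such probe signal was 15.1 units for males and 12.9 units for females, where the local background had a median of 33 units. Probes were named by matching RefSeq accessions to RefSeq's gene table of GRCr8, used for names, neighbours and promoters, not for array coordinates. Per gene, the probe with the highest mean signal was used. Given in full are the 3 members with the brightest probes in each role, every member at least 1.5-fold apart, and the 3 other pathway genes with the largest differences; other members are given more briefly. The members and lists were chosen with earlier results of these data known. Some genes stand in more than 1 list.

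The alternatives were normexp (limma 3.58.1, R 4.3.3, offset 50 units), other scalings, other probe rules, leaving out patches and the series matrix. Normexp used the median spot signal and the median local background, as the files used here hold no mean spot signal. Python 3.11.15 with pandas 2.3.3 was used, and the computation was tested on simulated data. The order of the arrays in the series only names the pools, and no pairing was used.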

Additional observations from a re-analysis of the deposited data

How the results depend on the processing

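The count of members at least 1.5-fold apart, all higher in the male pool, fell from 6 to 3 in each of 4 settings: with normexp (Wnt10b, Sfrp1 and Dkk1), with only probes well above background on both arrays, with the mean over probes, and without spots in patches (Sfrp1, Wnt6 and Wnt10a). The count at least 2-fold apart fell from 3 to 1 with normexp and without patches. Normexp adds an offset, which shrinks differences of dim genes by construction, and the 2 settings that need both arrays leave out members measured in 1 pool only. The median of the meningeal markers was 1.03 with normexp. Median centring, quantile normalization, the percentile over probes measured on both arrays and the series matrix left these counts within 1.5 times. Single members moved by over 1 technical SD in 6 of 44 cases with normexp and in 1 of 40 (Fzd10, 0.14) with the mean over probes. Small differences changed sign with normexp (Wnt1, Wnt7b, Fzd7 and Dkk3), median centring (Wnt9b), quantile normalization (Porcn) and the mean over probes (Fzd8). The lists' medians near 0 also turned: all members, coreceptors and planar polarity with normexp, and nuclear factors, other secreted antagonists and all other pathway genes with median centring and quantile normalization. With 1 array per sex no replicate could be left out. No paired analysis was possible because each sex has 1 pool, whose number comes from accession order. Signal over background limits the 21 dim members, whose technical SD was 0.25 or more.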
